A study of Marchantia polymorpha subsp. ruderalis with 24 samples.

Results

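Thalli of the liverwort Marchantia polymorpha sampled 60 h after a move to constant light were compared with thalli sampled 48 h after that move. The comparison rests on 6 of the 24 libraries of a time series, 3 at 60 h and 3 at 48 h, chosen by their labelled time alone. All plants were of the male laboratory accession Takaragaike-1 (Tak-1), untransformed as far as the labels say, and the labels give the tissue as young thallus. All had been raised from gemmae, the clonal propagules of this plant, at 20 °C with 12 h of light and 12 h of darkness a day before constant light began. No dark period fell between the samples compared, so 60 h and 48 h differ in time alone, by 12 h. For a rhythm of 24 h they stand for opposite phases of the second daily cycle that was sampled. For such a rhythm the earlier cycle gives the same pair of phases at 36 h and 24 h, in 6 other libraries. The length of the rhythm in constant light was not tested. The labels do not give the hour of the light-dark cycle at which plants were moved, so no time is called morning or evening here. Nor do they state that replicates came from separate cultures. Unless a fit to fewer libraries is named, the p-values below reflect the spread between libraries of one time, pooled over all 24 libraries. That spread may be technical. The extraction text speaks of frozen gemmae where the tissue label speaks of thallus.

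Plant circadian clocks are loops of transcription factors that repress each other in turn and so keep a daily rhythm when light and temperature stay constant. In flowering plants, pseudo-response regulators (PRR, TOC1) act as repressors through the day and evening, and a complex of ELF3, ELF4 and LUX acts in the evening. DET1, the gene named in the title of the series, forms a complex with DDB1 and COP10 in flowering plants that represses light responses in darkness, and it is linked there to the clock. Marchantia carries most of these genes as single copies.

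The 60 h libraries held 18472640, 23071960 and 16320062 counts, and the 48 h libraries 19316121, 19271096 and 27061982. Levels are given in CPM, counts scaled to the same library size. Correlations of log CPM between libraries of one time were 0.974 to 0.982 at 60 h and 0.956 to 0.979 at 48 h, and no pair agreed within counting noise. Replicate 2 of 48 h stood apart from the other 5 on the first principal component (38.3% of the variance), and the second component (24%) placed all 3 libraries of 60 h above all 3 of 48 h. A single gene, MpVg01240, took 0.954% to 2.13% of the counts at 60 h and 1.16% to 2.39% at 48 h, and more than that in 3 libraries of other times. Among markers of male sexual organs MpDUO1 stayed under 1 CPM in all 6 libraries and MpPRM did not pass the filter on low counts. MpMID was detected in all 6, at 6.51 to 9.58 CPM at 60 h and 7.87 to 12.3 CPM at 48 h. MpRKD, which also acts outside these organs, lay at 168 to 175 CPM at 60 h and 152 to 185 CPM at 48 h. The summed level of 6 genes linked to gemma cups was 164 to 201 CPM at 60 h and 195 to 218 CPM at 48 h, with none of them called. MpGCAM1, a small part of this sum, spread far more widely between replicates. It ran from 4.05 to 14.8 CPM at 60 h. At 48 h it ran from 3.41 CPM in replicate 2 to 26.03 CPM in replicate 1. The narrow summed range therefore does not show that libraries were alike in cup content, which was not tested. The RNA came from whole tissue, so fewer cells of a type and less RNA per cell cannot be told apart in any value below.

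At 60 h 626 genes were higher and 420 lower than at 48 h, out of 14414 tested (edgeR's quasi-likelihood test with Benjamini-Hochberg adjustment, adjusted p under 0.05, referred to below as called). The calls made up 7.26% of the tested genes, 4.34% higher and 2.91% lower. Most changes were moderate. The median called rise was 1.51-fold and the median called fall 1.5-fold, 111 genes rose and 82 fell by 2-fold or more, and 15 rose and 10 fell by 4-fold or more. In 1024 of the 1046 called genes the 60 h libraries did not overlap the 48 h libraries, against 21.9% of all tested genes. The counts depend on single libraries. With replicate 1 of 60 h left out 570 genes were called, and with replicate 3 of 48 h left out 611. With replicate 2 of 60 h left out rises and falls were nearly even, at 357 and 362. A fit to the 6 libraries alone, with fewer degrees of freedom, called 458.

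The largest rises were in genes of several kinds, counting called genes that have a symbol, at least 5 CPM on average over the 6 libraries and no overlap between the times. MpPRR (Mp2g16560), the pseudo-response regulator of the clock, stood at 262, 319 and 215 CPM in the 60 h libraries, against 62.9, 86.8 and 62.8 CPM in the 48 h libraries. The groups were far apart, and MpPRR rose 3.75-fold (log2 difference 1.91 ± 0.14, SE, edgeR adjusted p = 3.41e-08). MpPOD26 (Mp3g15330), a class III peroxidase gene, had 32.6, 45.1 and 31.7 CPM at 60 h, against 5.73, 15.8 and 7.40 CPM at 48 h. It rose 3.80-fold (adjusted p = 0.000348), with one 48 h library, replicate 2, well above the other 48 h values yet below every 60 h value. MpRLK-Pelle_LysM3 (Mp6g15550), a receptor-like kinase gene of the LysM class, whose members in flowering plants sense chitin and related molecules, had 39.8, 44.2 and 30.6 CPM at 60 h and 17.1, 11 and 13.9 CPM at 48 h. It rose 2.73-fold (adjusted p = 7.6e-06). MpGDPD (Mp4g01320), of the glycerophosphodiester phosphodiesterase family that breaks down membrane lipid head groups, rose 2.34-fold with all 60 h libraries at 117 CPM or more and all 48 h libraries at 58.1 CPM or less (adjusted p = 7.14e-06). MpDHAR3 (Mp3g08510), a dehydroascorbate reductase gene of ascorbate recycling, rose 2.31-fold, and MpGH35.2 (Mp2g15660), of the beta-galactosidase family of cell wall enzymes, 2.25-fold.

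The rest of the 12 largest rises were MpMLS5 (Mp8g16290, 4.28-fold), MpKOL3 (Mp2g01940, 3.72-fold), MpEXL3 (Mp7g19240, 2.42-fold), MpCCC2 (Mp5g00360, 2.62-fold), MpGH3.5 (Mp5g02880, 2.33-fold) and the protein phosphatase 2C gene MpPP2C_F3 (Mp4g14730, 2.26-fold). All 12 were called, but 3 of these calls rested on single libraries. That of MpCCC2 was lost without replicate 1 of 60 h or replicate 1 or 2 of 48 h (adjusted p from 0.0522 to 0.108). That of MpGH3.5 was lost without replicate 2 of 60 h (0.0518) and in the fit to the 6 libraries alone (0.0749), and that of MpPP2C_F3 without replicate 1 or 2 of 60 h or replicate 1 or 3 of 48 h (0.0511 to 0.129).

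**Figure D1:**
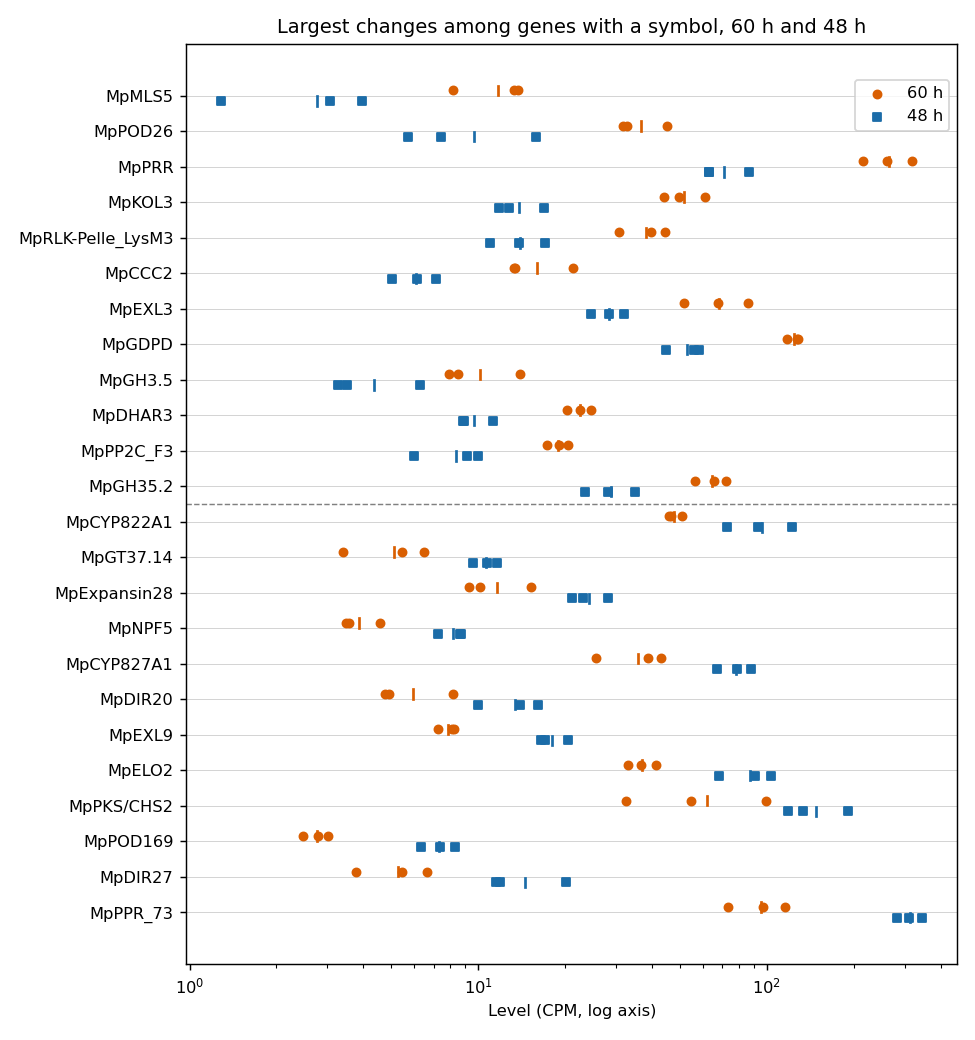
Levels of the 12 largest rises (above the dashed line) and the 12 largest falls (below it) among called genes with a symbol and a mean of at least 5 CPM, in CPM on a log axis. Orange circles are the 3 libraries of 60 h, blue squares the 3 of 48 h and vertical ticks the means, and in each of the 24 genes the circles and squares do not overlap, as the choice of these genes required.

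The largest fall under the same conditions was that of MpPPR_73 (Mp8g16250), a gene for a pentatricopeptide repeat (PPR) protein, a class that binds organelle RNA. Its level was 97.2, 116 and 73.5 CPM at 60 h, against 281, 346 and 311 CPM at 48 h. The highest 60 h library had less than any 48 h library by a wide margin, and the fall was 3.27-fold (log2 difference −1.71 ± 0.14, SE, adjusted p = 1.09e-07). MpPOD169 (Mp8g16260), a peroxidase gene with the next identifier, fell 2.65-fold, to 2.80, 3.02 and 2.47 CPM at 60 h, against 6.34, 8.3 and 7.37 CPM at 48 h (adjusted p = 0.00593), and whether reads were shared between these neighbours was not tested. MpELO2 (Mp3g20100), of the fatty acid elongase family, had 41.4, 36.6 and 33.0 CPM at 60 h and 90.9, 68.1 and 104 CPM at 48 h, a fall of 2.37-fold (adjusted p = 2.15e-05). The cytochrome P450 genes MpCYP827A1 (Mp5g12720, 2.18-fold lower) and MpCYP822A1 (Mp5g22720, 2.02-fold lower) fell too, but MpCYP822A1 was not called without replicate 3 of 48 h (adjusted p = 0.062).

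Cell wall genes were among both the rises and the falls. MpExpansin28 (Mp3g12300), of the expansins that loosen cell walls, fell 2.09-fold, to 10.2, 9.30 and 15.3 CPM at 60 h, against 23.1, 28.2 and 21.1 CPM at 48 h (adjusted p = 0.000198). MpEXL9 (Mp7g05020) fell 2.28-fold and MpGT37.14 (Mp7g07390), a glycosyltransferase gene, 2.08-fold, though MpGT37.14 was not called in the fit to the 6 libraries alone (adjusted p = 0.0517). In the list of expansin and cell wall genes 3 of 49 rose and 2 fell, where 4.34% of all tested genes rose and 2.91% fell. The list had a median log2 difference of −0.10, against −0.01 over all tested genes. The third rise besides MpEXL3 and MpExpansin16 was MpExpansin4 (1.69-fold), a call that was lost in 8 of the alternatives, among them leaving out any 48 h library or replicate 1 or 2 of 60 h (adjusted p from 0.0567 to 0.213). MpExpansin16 was picked out after its values were seen. The dirigent genes MpDIR27 (Mp5g00590, 2.75-fold) and MpDIR20 (Mp6g12700, 2.25-fold) fell and MpDIR17 (Mp7g06220, 1.49-fold) rose, of 40 tested dirigent genes. This share of 7.5% is near the 7.26% of all tested genes. Dirigent proteins steer the coupling of phenolic radicals. The call of MpDIR20 was lost without replicate 1 of 60 h (adjusted p = 0.0503), and 5 dirigent genes were called without replicate 3 of 60 h.

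Among genes without a symbol, under the same conditions, the largest changes were wider. Mp3g24880 had 171, 175 and 146 CPM at 60 h, against 22.3, 32.4 and 15.2 CPM at 48 h, which was 7.08-fold higher (adjusted p = 2.39e-05). Mp5g03550 was the next, at 983, 862 and 708 CPM at 60 h and 207, 109 and 139 CPM at 48 h, 5.61-fold higher, and Mp2g06690 rose 3.94-fold. Both sets of libraries of these 3 genes were well apart. Mp6g04480 fell 5.05-fold, to 7.64, 9.81 and 6.09 CPM at 60 h, against 31.4, 41.5 and 46.6 CPM at 48 h (adjusted p = 1.14e-07), and its neighbour Mp6g04490 4.83-fold. Mp8g13340 fell 6.08-fold, but the call was lost without replicate 1 or 2 of 60 h (adjusted p 0.0745 and 0.0677), the 2 libraries in which it was lowest. No function is annotated for these 6 identifiers in the files used.

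Of the 8 core clock genes, MpPRR was the one called, where 7.26% of all tested genes were called. It was 210 ± 9.78 CPM (SD, n = 3) at 54 h and 111 ± 15.3 CPM at 66 h, so 60 h, at 265 ± 51.8 CPM, was its highest time of that cycle and 48 h, at 70.8 ± 13.9 CPM, its lowest. MpTOC1 (Mp3g09460), the other pseudo-response regulator gene, had 222, 221 and 169 CPM at 60 h, against 146, 167 and 167 CPM at 48 h. Replicate 3 of 60 h lay close to the 48 h values, and the log2 difference of 0.35 ± 0.13 did not pass the test (adjusted p = 0.117, but 0.0355 without that library). MpGI (Mp1g13750), homologue of GIGANTEA, differed by 0.19 ± 0.07 (adjusted p = 0.119), with 97.8 to 111 CPM at 60 h and 91.0 to 94.7 CPM at 48 h and no overlap. Neither did the REVEILLE-type MYB gene Mp1R-MYB11 (0.32 ± 0.14, adjusted p = 0.207) or the evening complex genes MpGARP7, the LUX homologue (0.18 ± 0.10), MpELF4 (0.15 ± 0.14) and MpELF3 (−0.08 ± 0.12) pass the test, nor did MpFKF, homologue of a blue light sensor of the flowering pathway (−0.07 ± 0.09). At an unadjusted p under 0.05 the list had 4 of 8 genes, where 19.4% of all tested genes had such a p, and its median log2 difference was 0.19.

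In the light signalling list 3 of 13 genes rose and 1 fell, where 4.34% of all tested genes rose and 2.91% fell. MpDET1 (Mp8g00970) had 71.5, 74.8 and 58.6 CPM at 60 h, against 117, 125 and 145 CPM at 48 h. Every 60 h library lay below every 48 h library, and MpDET1 fell 1.89-fold (log2 difference −0.92 ± 0.10, SE, adjusted p = 7.14e-06). Its partners did not pass the test, with a log2 difference of 0.21 ± 0.15 for MpCOP10 and −0.05 ± 0.08 for MpDDB1, nor did the ubiquitin ligase gene MpCOP1 (−0.07 ± 0.09) and its partner MpSPA1 (0.07 ± 0.10). MpBBX1 (Mp5g05940), a gene for a B-box zinc finger protein, the family that works downstream of COP1 in flowering plants, moved the other way. It had 67.9, 74.5 and 62.7 CPM at 60 h and 27.8, 35.4 and 35.9 CPM at 48 h, and rose 2.07-fold (1.05 ± 0.10, adjusted p = 1.44e-06). MpBBX6 (Mp2g16350) had 13.3, 18.9 and 11.9 CPM at 60 h and 8.80, 6.09 and 8.04 CPM at 48 h. MpBBX6 rose 1.92-fold (adjusted p = 0.00423, but 0.057 in the fit to the 6 libraries alone). The phytochrome-interacting factor gene MpBHLH6 (Mp3g17350) rose 1.47-fold, with 483, 548 and 362 CPM at 60 h, against 263, 395 and 290 CPM at 48 h. Replicate 3 of 60 h lay below replicate 2 of 48 h, and the call (adjusted p = 0.0398) was lost in the fit to the 6 libraries alone and without replicate 1 or 2 of 60 h or replicate 1 or 3 of 48 h (0.125 to 0.195). The other B-box genes MpBBX2 to MpBBX5 had log2 differences from −0.11 to 0.16, and MpRUP, a repressor of ultraviolet-B signalling, one of 0.02, none of them called.

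None of the 4 photoreceptor genes was called by edgeR, DESeq2 or limma-voom, and 1 had an unadjusted edgeR p under 0.05, against 19.4% of all tested genes. The phytochrome gene MpPHY had 133, 146 and 108 CPM at 60 h, against 138, 163 and 188 CPM at 48 h, with overlap and a log2 difference of −0.34 ± 0.13 (adjusted p = 0.137). The differences were −0.16 ± 0.10 for the phototropin gene MpPHOT, −0.05 ± 0.11 for the cryptochrome gene MpCRY and −0.02 ± 0.09 for the ultraviolet-B receptor gene MpUVR8. MpCDF (Mp1g18540), for a Dof factor of the class that FKF and GI act on in Arabidopsis, had 26.6, 30.8 and 23.6 CPM at 60 h and 45.1, 49.4 and 53.6 CPM at 48 h. The groups were apart and MpCDF fell 1.82-fold (adjusted p = 0.00175).

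**Figure D2:**
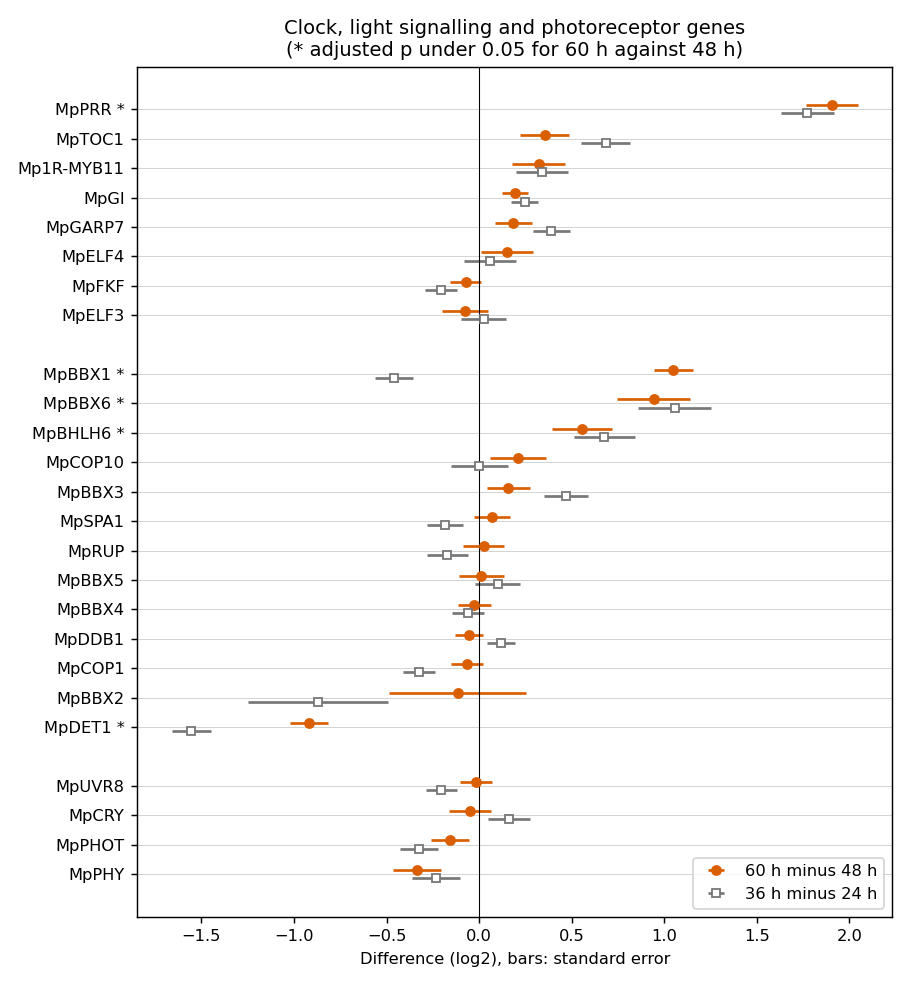
Log2 differences of clock genes (top), light signalling genes (middle) and photoreceptor genes (bottom), with bars of 1 standard error. Filled orange circles are 60 h minus 48 h and open grey squares 36 h minus 24 h. Stars mark the 5 genes called at 60 h against 48 h, of which MpPRR, MpBBX1, MpBBX6 and MpBHLH6 lie right of 0 and MpDET1 left of it, and MpBBX1 alone among these 5 has the opposite sign at 36 h against 24 h.

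Genes of phenylpropanoid and flavonoid synthesis turn phenylalanine into wall phenolics and pigments. Of 40 tested members 7 fell and 2 rose, where 2.91% of all tested genes fell and 4.34% rose, and the others did not pass the test. The median log2 difference of the 40 was −0.21, against −0.01 over all tested genes. The chalcone synthase family gene MpPKS/CHS2 (Mp2g07060) had 54.7, 32.6 and 99.3 CPM at 60 h, against 192, 118 and 134 CPM at 48 h. These 3 values of 60 h spread widely yet stayed below those of 48 h, and the fall was 2.38-fold (adjusted p = 0.0185). MpPKS/CHS12 (Mp4g14150) fell 3.99-fold, and its neighbour MpPAL6 (Mp4g14140), of the phenylalanine ammonia-lyase family at the entry to the pathway, 3.85-fold at levels of 0.121 to 0.538 CPM at 60 h and 0.787 to 1.38 CPM at 48 h. MpF3H (Mp1g26540), for flavanone 3-hydroxylase, fell 1.85-fold. The other falls were those of MpPKS/CHS15 (1.80-fold), MpPKS/CHS14 (1.54-fold) and MpC4H1 (1.38-fold), for cinnamate 4-hydroxylase. The 2 rises were those of MpPKS/CHS5 (1.67-fold) and MpHCT (1.61-fold), an acyltransferase gene of the branch to wall phenolics. These last 5 genes were chosen after their values were seen.

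The phenylpropanoid calls rested on few libraries, with 5 of the 9 left without replicate 1 of 48 h and 2 in the fit to the 6 libraries alone. Without replicate 1 of 48 h or replicate 1 or 2 of 60 h the call of MpPKS/CHS2 was lost (adjusted p from 0.0881 to 0.0985), and those of MpF3H and MpHCT without the same libraries or replicate 3 of 48 h (0.0582 to 0.249 and 0.0599 to 0.0989). MpF3H was also not called without 3 libraries of other times rich in MpVg01240 (0.052). MpPAL6 had an adjusted p in 13 alternatives, against 14 for most named genes. Its call was lost without replicate 2 or 3 of 60 h or replicate 1 of 48 h (0.056 to 0.0763). In the fit to the 6 libraries alone these 4 and MpPKS/CHS5, MpPKS/CHS14 and MpC4H1 were not called (0.0515 to 0.16). MpAUS (Mp2g05850), for an enzyme of the aureusidin synthase type in flavonoid pigment synthesis, fell 4.3-fold, to 1.51, 1.26 and 1.69 CPM at 60 h, against 7.88, 5.99 and 5.26 CPM at 48 h (adjusted p = 0.0084).

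Of 15 tested R2R3-MYB genes 4 were called lower and 0 higher, where 2.91% of all tested genes were called lower and 4.34% higher. With single libraries left out 2 to 4 were called, and DESeq2 called 3. MpR2R3-MYB14 (Mp5g19050), known in Marchantia as a regulator of red cell wall pigments, had 0.108, 0.511 and 0.724 CPM at 60 h, against 2.35, 2.05 and 1.14 CPM at 48 h. It fell 4.1-fold at these low levels (adjusted p = 0.0347), but the call was lost without replicate 1 or 2 of 60 h or replicate 1 or 2 of 48 h, in the fit to the 6 libraries alone or with the replicate number as a block (0.0511 to 0.158). MpR2R3-MYB14 had an adjusted p in 12 alternatives, against 14 for most named genes. MpR2R3-MYB5 (Mp8g11870) fell 1.67-fold and MpR2R3-MYB17 (Mp1g09420) 1.46-fold, both without overlap. MpR2R3-MYB15 (Mp3g09350) fell 1.68-fold, a call that was lost without replicate 2 or 3 of 60 h or replicate 1 or 2 of 48 h and in the fit to the 6 libraries alone (adjusted p from 0.0509 to 0.0875). The median of the list was −0.41. MpC1HDZ (Mp3g02320), a homeodomain factor that Marchantia needs for its oil body cells, fell 1.63-fold, to 20.6, 22.7 and 21.9 CPM at 60 h, against 37.3, 32.1 and 37.0 CPM at 48 h (adjusted p = 0.0101, but 0.0538 without replicate 1 of 60 h). It was the one called among 3 oil body markers. Their summed level was 26.6 to 28.5 CPM at 60 h and 37.5 to 43.9 CPM at 48 h, most of it from MpC1HDZ itself. The other markers, MpSYP12B (log2 difference −0.08) and MpERF13 (−0.12), overlapped between the times and were not called. How far the number of oil body cells moved with other values was not tested.

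In each of the abscisic acid, LEA-like, jasmonate and lipoxygenase, and protein phosphatase 2C lists 3 genes were called higher and 0 lower. Over all tested genes 4.34% were called higher. With 2.91% of all tested genes lower, 0 lower calls in lists of 12 to 51 genes is near the background. Abscisic acid is a hormone of water stress in land plants. MpABA1 (Mp2g00670), for zeaxanthin epoxidase at the start of the abscisic acid route, had 323, 360 and 258 CPM at 60 h and 169, 199 and 192 CPM at 48 h. It rose 1.68-fold without overlap (adjusted p = 0.000101). MpABA4 (Mp5g19490), whose Arabidopsis homologue acts at the next step, rose 1.41-fold, though not without replicate 3 of 48 h or in the fit to the 6 libraries alone (adjusted p 0.09 and 0.0764). MpDHN2 (Mp4g06390), for a dehydrin, rose 1.73-fold, a call lost without replicate 1 or 2 of 60 h or replicate 1 or 2 of 48 h (0.0503 to 0.0558). The median of the 12 abscisic acid genes was 0.15. Beyond the list, MpCYP707A (Mp2g25940), of the P450 family that breaks abscisic acid down in Arabidopsis, had 2.96, 3.25 and 4.22 CPM at 60 h and 0.921, 1.1 and 1.18 CPM at 48 h. MpCYP707A rose 3.23-fold (adjusted p = 0.00013).

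Lipoxygenases oxidise fatty acids on the way to oxylipins such as the jasmonate precursors that Marchantia uses as signals, and 3 of 17 genes in that list rose. MpLOX14 (Mp8g12930) had 368, 414 and 314 CPM at 60 h and 252, 217 and 248 CPM at 48 h, a rise of 1.53-fold without overlap (adjusted p = 0.00188). MpLOX16 (Mp2g16000) rose 2.46-fold and MpLOX4 (Mp5g21680) 1.62-fold. Both were fragile. The call of MpLOX16 was lost without any of the 48 h libraries or replicate 1 or 2 of 60 h, in the fit to the 6 libraries alone and with limma-voom (adjusted p from 0.0607 to 0.135), and that of MpLOX4, whose 48 h and 60 h libraries overlapped, in 6 alternatives, among them leaving out replicate 2 of 60 h or replicate 1 or 2 of 48 h (0.051 to 0.326). MpCYP74N1 (Mp3g21350), of the P450 family that acts on lipoxygenase products, rose 2.16-fold, with 69.0, 80.3 and 56.1 CPM at 60 h and 30.3, 29.3 and 35.6 CPM at 48 h (adjusted p = 4.68e-06).

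The 3 LEA-like rises, of 51 tested genes for proteins of the late embryogenesis abundant type, were MpLEA-like29 (1.66-fold), MpLEA-like11 (1.51-fold) and MpLEA-like8 (1.49-fold), with a list median of −0.10 and 31 of the 51 differences below 0. A called share of 5.88% is near the 7.26% of all tested genes. MpLEA-like29 was not called without replicate 2 of 60 h or replicate 3 of 48 h (adjusted p 0.059 and 0.0934), MpLEA-like11 in 6 alternatives, among them leaving out replicate 1 or 2 of either time (0.0523 to 0.19), and MpLEA-like8 in the fit to the 6 libraries alone (0.0628). Besides MpPP2C_F3, the rises among 18 protein phosphatases 2C, a family that includes negative regulators of abscisic acid signalling, were those of MpPP2C_K2 (1.32-fold) and MpPP2C_F1 (1.2-fold), and 9 of the 18 differences were below 0. MpPP2C_K2 was lost without replicate 2 of 60 h or replicate 1 or 3 of 48 h and in the fit to the 6 libraries alone (0.078 to 0.13), and MpPP2C_F1 without any of the 6 libraries and in 5 other alternatives (0.0501 to 0.182).

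Among other transcription factor families the bZIP list had 4 of 13 genes called, a share of 30.8% where 7.26% of all tested genes were called. The shares of the bHLH (10.8%) and AP2/ERF (5.26%) lists were near the 7.26%. MpBZIP7 (Mp3g04360) rose 1.55-fold, while MpBZIP8 (1.39-fold), MpBZIP1 (1.34-fold) and MpBZIP5 (1.25-fold) fell. MpBZIP1 was not called in the fit to the 6 libraries alone (adjusted p = 0.0765) and MpBZIP5 not in 9 alternatives, among them leaving out replicate 1 or 3 of 60 h or replicate 2 or 3 of 48 h (0.0572 to 0.236). Of 37 bHLH genes 3 rose and 1 fell, but leaving out replicate 3 of 48 h left none. MpBHLH21 (1.44-fold higher) was not called without that library (0.0696). MpBHLH30 (1.35-fold lower) and MpBHLH32 (1.28-fold higher) were not called without replicate 1 or 2 of 60 h or replicate 2 or 3 of 48 h, nor in the fit to the 6 libraries alone, with ranges over their lost alternatives of 0.0963 to 0.14 and 0.0501 to 0.193. MpERF18, the one AP2/ERF gene called of 19, rose 2.1-fold, though not without replicate 2 of 60 h or replicate 3 of 48 h or in the fit to the 6 libraries alone (0.0525 to 0.0666).

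Large enzyme and kinase families had shares of called members near the 7.26% of all tested genes, 9.24% of peroxidases, 10% of cytochrome P450 genes and 6.41% of receptor-like kinases. Of 119 class III peroxidases 7 rose and 4 fell, and 7 in all were called without replicate 1 or 2 of 60 h or replicate 1 of 48 h. MpPOD94 (Mp5g12120) fell 3.02-fold, to 1.40, 1.81 and 1.63 CPM at 60 h, against 4.81, 5.2 and 4.65 CPM at 48 h. MpPOD92 (2.31-fold higher) lost its call without any single library of the 6 and with limma-voom (adjusted p from 0.0578 to 0.143). Of 90 cytochrome P450 genes 4 rose and 5 fell, with 4 called without replicate 3 of 48 h. Of 78 receptor-like kinases 4 rose and 1, MpRLK-Pelle_SD-2b1 (1.72-fold), fell, with 8 called without replicate 3 of 60 h. Other rises were those of MpRLK-Pelle_URK-Pp-1c (1.59-fold) and MpRLK-Pelle_L-LEC24 (1.90-fold, adjusted p = 0.0549 in the fit to the 6 libraries alone). MpPPO42 (Mp5g19980), the one polyphenol oxidase called of 42, had 678, 802 and 716 CPM at 60 h and 443, 455 and 479 CPM at 48 h, a rise of 1.59-fold (adjusted p = 4.28e-05). The cupin gene MpCupin84 rose 1.54-fold, but not without replicate 2 of either time or in the fit to the 6 libraries alone (0.0616 to 0.105).

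The glutathione S-transferase genes MpGST35 (1.70-fold) and MpGST12 (1.66-fold) rose, 2 of 33, and each 60 h library lay above each 48 h library in both. This share of 6.06% is near the 7.26% of all tested genes. MpMTPSL1, of the terpene synthase-like enzymes, rose 1.5-fold. Of 31 UDP-glycosyltransferase genes 1 rose, MpUGT24 (1.82-fold), and 4 fell, where 4.34% of all tested genes rose and 2.91% fell. Among the falls MpUGT14 (1.59-fold), MpUGT9 (1.54-fold) and MpUGT15 (1.45-fold) lost their calls in the fit to the 6 libraries alone (adjusted p 0.108, 0.0853 and 0.0843), the first also without replicate 1 or 3 of 60 h or replicate 3 of 48 h (0.0567 to 0.123) and MpUGT9 without replicate 1 or 2 of 60 h or replicate 1 or 3 of 48 h (0.0694 to 0.15). The fourth fall was that of MpUGT4, picked out after its values were seen.

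Nitrate and peptide transporters of the NPF family carry nitrogen compounds across membranes. Of 23 tested genes, 3 called lower and 1 higher, MpNPF5 (Mp3g03470, 2.12-fold), MpNPF22 (Mp5g04930, 1.90-fold) and MpNPF23 (Mp5g04940, 1.34-fold) fell and MpNPF14 (Mp3g13790, 1.89-fold) rose. The called share was 17.4%, where 7.26% of all tested genes were called. MpNPF22 had 12.0, 15.3 and 13.3 CPM at 60 h, against 26.5, 27.1 and 23.7 CPM at 48 h. MpNPF23, its neighbour, lost its call in 8 alternatives, among them leaving out replicate 1 or 3 of 60 h or replicate 1 or 2 of 48 h (adjusted p from 0.0537 to 0.164). MpAMT1.2 (Mp6g08310), the one ammonium transporter called of 6, fell 1.42-fold, to 67.3 to 78.2 CPM at 60 h, against 95.9 to 116 CPM at 48 h. The proton pump gene MpHA14 (1.41-fold) also fell. So did MpFAD11, a fatty acid desaturase gene (1.31-fold), and MpSAUR2 (1.66-fold), but both not in the fit to the 6 libraries alone (0.198 and 0.112). The call of MpFAD11 was also lost without replicate 1 or 3 of 60 h or replicate 3 of 48 h (0.0672 to 0.0924) and that of MpSAUR2 without replicate 1 of 60 h or replicate 2 of 48 h (0.0697 and 0.0652).

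Of 72 PPR genes 4 were called, all lower, a share of 5.56% that is near the background of 7.26% called and 2.91% lower. Besides MpPPR_73 they were MpPPR_16 (1.76-fold), MpPPR_59 (1.38-fold, adjusted p = 0.0965 in the fit to the 6 libraries alone) and MpPPR_29 (1.36-fold). The call of MpPPR_29 was lost without replicate 1 or 3 of 60 h or any 48 h library, in the fit to the 6 libraries alone and with the replicate number as a block (0.0559 to 0.185). The autophagy gene MpATG8b (Mp5g05930), which has the identifier just before that of MpBBX1, rose 1.42-fold, and not without replicate 1 or 2 of 60 h or replicate 1 or 3 of 48 h or in the fit to the 6 libraries alone (0.0726 to 0.164). The tubulin gene MpTUB2 (Mp2g09390), one of 7 genes often used as references, was 1.34-fold higher, at 289 to 305 CPM at 60 h, against 212 to 233 CPM at 48 h (adjusted p = 0.00129). It was the one called among the 7, whose log2 differences ran from −0.58 to 0.50, so uncalled members differed by more.

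**Figure D3:**
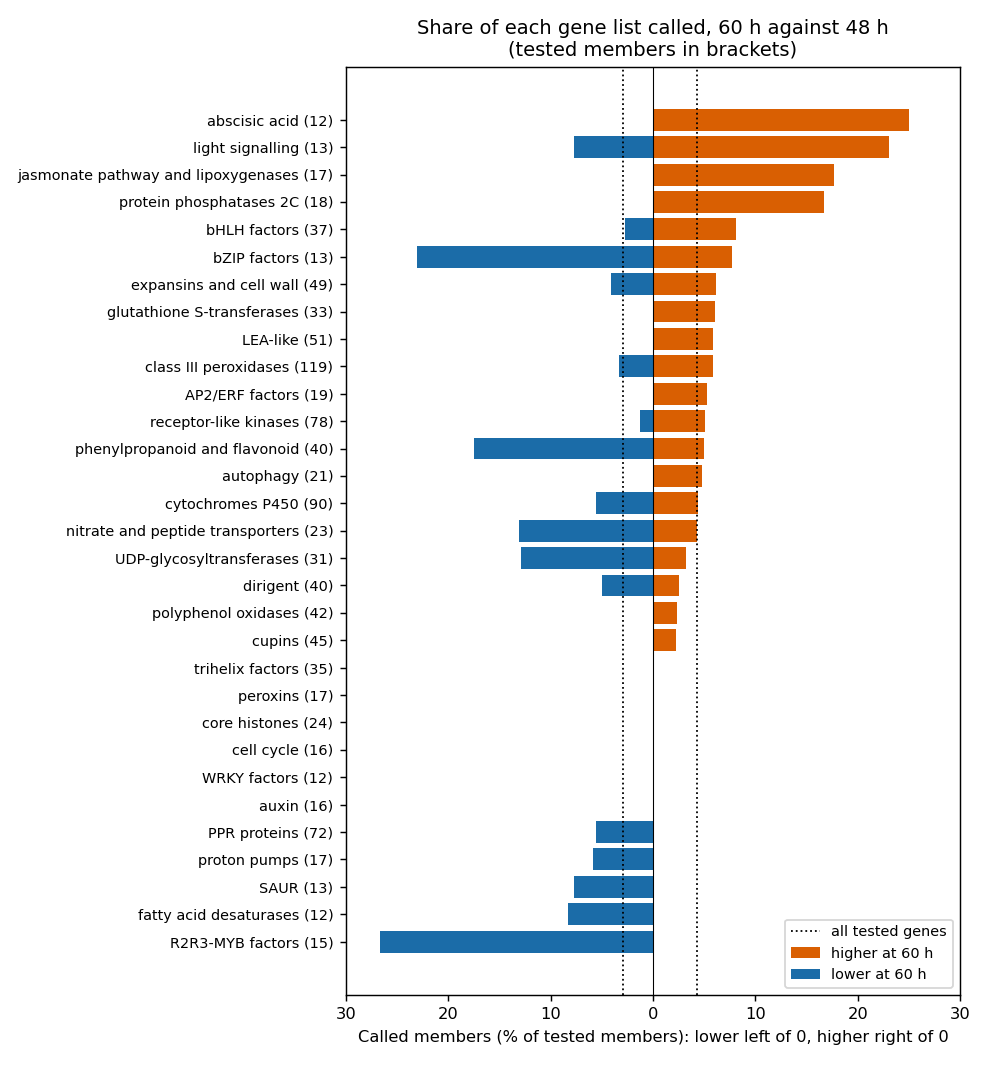
Share of the tested members of each gene list that was called at 60 h against 48 h, in percent, for lists with at least 10 tested members (number in brackets). Orange bars to the right are members higher at 60 h and blue bars to the left members lower at 60 h, and dotted lines mark the shares over all tested genes, 4.34% and 2.91%. Where a list has calls in one direction alone, they are 1 to 4 genes.

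Several lists had no called member. These were cell cycle genes (0 of 16), core histones (0 of 24), heat shock genes (0 of 6), auxin genes (0 of 16), WRKY factors (0 of 12), trihelix factors (0 of 35), peroxins (0 of 17), the Calvin cycle (0 of 6) and tetrapyrrole synthesis, the route to chlorophyll (0 of 4). Over all tested genes 7.26% were called. The median log2 differences of these lists ran from −0.24 for the cell cycle to 0.02 for peroxins, against −0.01 over all tested genes. Below 0 were 13 of 16 cell cycle, 20 of 24 histone and 5 of 6 heat shock genes, and above 0 were 13 of 17 peroxins. At an unadjusted edgeR p under 0.05, which 19.4% of all tested genes reached, there were 6 trihelix, 5 auxin and 3 Calvin cycle genes, 2 each of the cell cycle, histone and WRKY lists, 1 heat shock gene and 0 peroxin and tetrapyrrole genes. DESeq2 called 3 auxin, 3 trihelix, 1 WRKY and 1 Calvin cycle gene, and limma-voom 1 auxin and 1 WRKY gene. Leaving out single libraries gave at most 1 call in any of these lists. A rhizoid list matched no symbol.

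The pair of times 24 h earlier gave more genes. At 36 h against 24 h 2828 genes were called (19.6% of those tested, 10.4% higher and 9.21% lower). These 6 libraries are others than those of 60 h and 48 h. Of the 1046 genes called at 60 h against 48 h, 799 (76.4%) were also called at 36 h against 24 h, which is 28.3% of the calls of the earlier cycle, and 793 of them moved in the same direction. Genes called in both cycles numbered 405 in fits to the compared times alone, 482 when replicate 1 of 60 h was left out and 495 when it was replicate 3 of 48 h. Counting the sign alone, 601 of the 626 rises and 414 of the 420 falls had the same sign at 36 h against 24 h. How many of all tested genes kept their sign was not counted. The rises had a median log2 difference of 0.60 at 60 h against 48 h and of 0.67 at 36 h against 24 h, and the falls one of −0.58 and one of −0.76. In the earlier cycle 425 of the 626 rises were highest at 36 h, 98 at 30 h and 98 at 42 h, and 5 at 24 h. Of the 420 falls 364 were highest at 24 h and 1 at 36 h. Over all tested genes 23.5% were highest at 36 h and 30.5% at 24 h.

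Within the later cycle itself the opposite phase was not the extreme for every gene. By their mean levels 544 of the 626 rises were highest at 60 h, 73 at 66 h and 9 at 54 h, and 275 of the 420 falls were lowest at 60 h and 142 at 66 h. These times share libraries with the comparison that chose the genes, and the counts are a description.

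**Figure D4:**
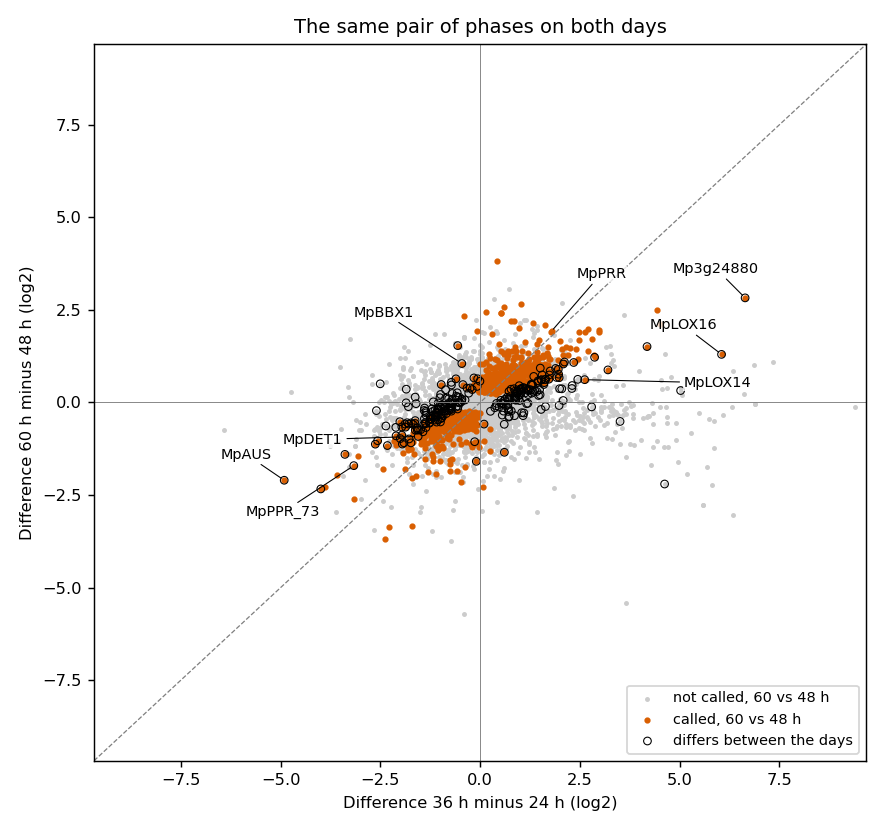
Log2 differences of all tested genes at 60 h minus 48 h (vertical) and at 36 h minus 24 h (horizontal). Orange points are called at 60 h against 48 h, black rings mark the 260 genes whose difference changed between the cycles, and the dashed line marks equal differences. Most rings lie closer to the horizontal axis than the dashed line does, and MpBBX1 lies upper left, where the signs are opposite.

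Whether a gene's 12 h difference changed between the cycles was tested directly, as the 60 h minus 48 h difference less the 36 h minus 24 h difference. The test compares single times, so a rhythm of another size and one of shifted phase cannot be told apart by it. A change was called for 260 genes (1.8% of those tested), and 1680 had an unadjusted p under 0.05. In 245 of the 260 the difference was smaller in size at 60 h against 48 h and in 15 it was larger. The sign was the same in 192 and opposite in 68, of which 6 were called in both cycles. These 6 were MpBBX1 and 5 genes without a symbol, all of them lower at 36 h than at 24 h and higher at 60 h than at 48 h. MpBBX1 had 34.7, 28.4 and 32.8 CPM at 36 h, against 44.7, 45 and 42.4 CPM at 24 h, a log2 difference of −0.46 ± 0.10 where that of 60 h against 48 h was 1.05 ± 0.10 (test of the difference, adjusted p = 4.7e-06). Its highest times were 30 h (90.0 ± 5.2 CPM, SD, n = 3) and 54 h (80.4 ± 2.94 CPM), and it stood at 68.4 ± 5.89 CPM at 60 h, against 32.0 ± 3.23 CPM at 36 h.

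MpDET1 kept its direction with a smaller difference. It had 44.7, 47.1 and 48.6 CPM at 36 h and 133, 136 and 143 CPM at 24 h, a log2 difference of −1.55 ± 0.11, against which the fall of 0.92 at 60 h was smaller by 0.64 (adjusted p = 0.0227). The 60 h libraries lay above the 36 h libraries, while those of 48 h and 24 h overlapped. This call was lost without replicate 1 or 2 of 60 h, 1 or 2 of 48 h, 1 or 2 of 36 h or 3 of 24 h (adjusted p from 0.0547 to 0.0745). For MpPRR the log2 difference was 1.91 ± 0.14 at 60 h against 48 h and 1.77 ± 0.14 at 36 h against 24 h, and the change of 0.13 did not pass the test (adjusted p = 0.898). MpCDF (−0.87 ± 0.16 and −1.46 ± 0.17, adjusted p = 0.27) and MpABA1 (0.75 ± 0.11 and 0.46 ± 0.11, adjusted p = 0.465) did not pass that test either.

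Besides MpBBX1, genes for lipoxygenases, a peroxidase and an aureusidin synthase type enzyme had the largest changes between the cycles among genes with a symbol and a mean of at least 5 CPM. MpLOX14 had 643, 656 and 552 CPM at 36 h and 94.8, 98.1 and 108 CPM at 24 h, so that its log2 difference was 2.62 ± 0.12 in the earlier cycle and 0.61 ± 0.12 in the later (adjusted p = 3.87e-07). Both its 48 h level was above that of 24 h and its 60 h level below that of 36 h, with no overlap. MpLOX10 (Mp8g09050) rose at 36 h against 24 h by 2.3 ± 0.18, but had 63.1, 58.4 and 80.8 CPM at 60 h and 46.2, 52 and 57.5 CPM at 48 h, a difference of 0.38 ± 0.17 that was not called (test of the change between cycles, adjusted p = 0.000129). The peroxidase gene MpPOD167 (Mp8g09590) rose by 1.98 ± 0.27 in the earlier cycle, and in the later its groups overlapped, at 67.0 to 107 CPM at 60 h and 49.1 to 120 CPM at 48 h (adjusted p = 0.00414). MpPPO42 had a log2 difference of 0.67 ± 0.09 at 60 h against 48 h and of 1.92 ± 0.09 at 36 h against 24 h (adjusted p = 6.6e-06).

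MpAUS fell by 2.1 on the log2 scale at 60 h against 48 h and by 4.91 at 36 h against 24 h, with 0.297 to 0.728 CPM at 36 h and 10.1 to 19.0 CPM at 24 h. The test of that change (adjusted p = 0.0459) was lost without any single library of the 12 but replicate 2 of 24 h, with limma-voom, with the replicate number as a block and without the 3 libraries rich in MpVg01240 (0.0513 to 0.182). MpPPR_73 fell by 1.71 at 60 h against 48 h and by 3.17 at 36 h against 24 h (adjusted p = 0.000217). Its 36 h libraries held 27.5 to 33.1 CPM, below all 3 of 60 h.

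**Figure D5:**
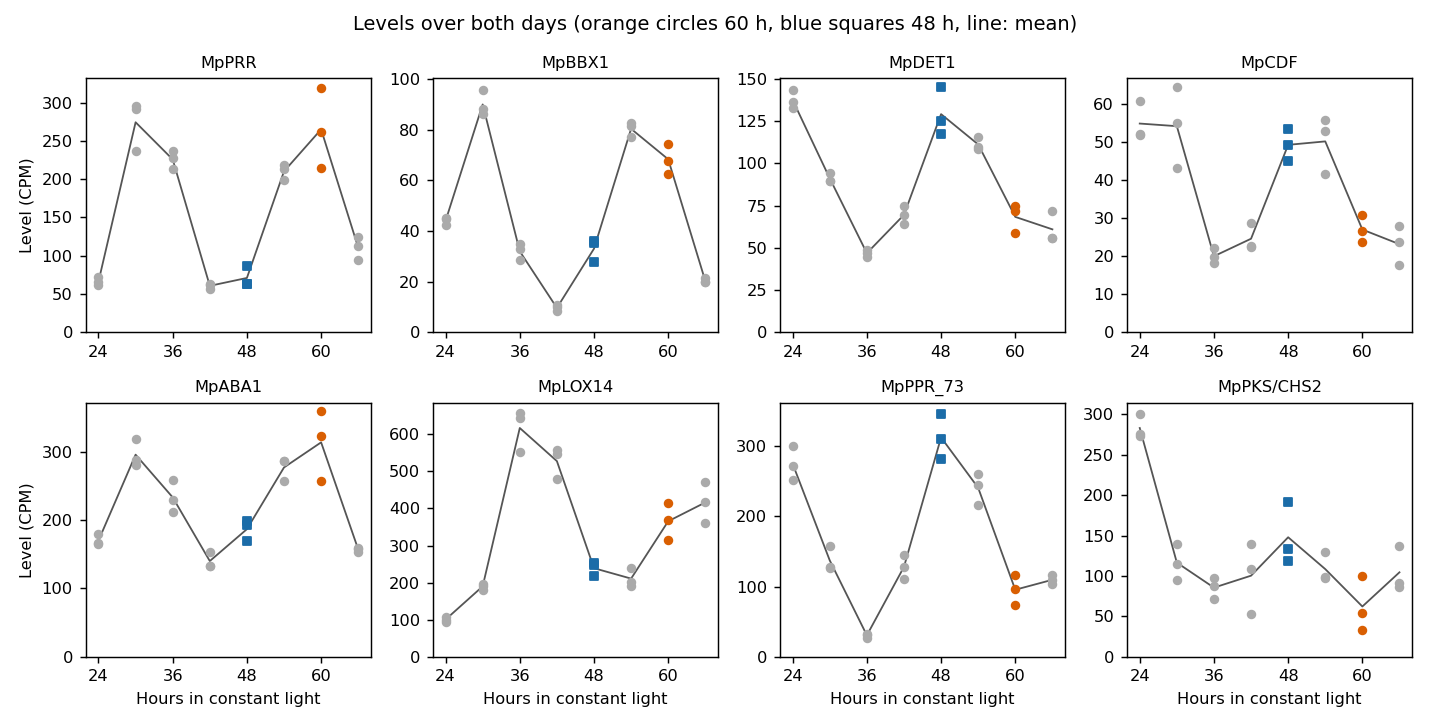
Levels in CPM of 8 genes over all 8 times, 24 to 66 h in constant light, with 1 point per library and a line through the means. Orange circles are 60 h, blue squares 48 h and grey circles the other times. MpPRR peaks at 30 h and at 60 h, MpBBX1 at 30 h and 54 h, and the swing of MpLOX14 from 48 h on is narrower than before.

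Called genes were spread over the genome. On chromosomes 1 to 8, as read from the identifiers, 6.92% to 7.82% of tested genes were called, and on the male sex chromosome V 2 of 61 (3.28%). Another 75 tested genes have the letter z in that place of the identifier, and 0 of them were called. There were 103 pairs of called genes with neighbouring identifiers, 85 with the same direction and 18 with opposite ones. Neighbours among all tested genes were not counted, so these numbers cannot show whether called genes lie together more than other genes. How far shared reads contribute to such pairs was not tested.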

How the data were processed

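Messenger RNA of Marchantia polymorpha Tak-1 was sequenced at 8 times, 24 to 66 h after the move to constant light, with 3 libraries per time. Per the labels' protocols, each stranded, poly(A)-selected library took 100 ng of total RNA. The authors deposited raw whole-number counts for 20574 genes. Which aligner, counter, strand option and build produced them is not given in the sources used here, so near-identical copies, overlapping genes and antisense partners may share counts. Symbols came from a RefSeq gene table (MpTak2_v7.1) joined on the digits of the identifiers, which carry another version's suffix. Of the identifiers 17641 matched and 3091 had a symbol. Renumbering between versions would give a gene the wrong symbol. Promoter and protein sequences were not used here.

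The analysis used edgeR 4.0.16 under R 4.3.3. Its function filterByExpr (minimum count 10) kept 14414 genes and set aside 6160. A quasi-likelihood model with 1 mean per time and TMM scaling was fitted to all 24 libraries (16 residual degrees of freedom), and 60 h minus 48 h, 36 h minus 24 h and their difference were tested (glmQLFTest, Benjamini-Hochberg over all tested genes, adjusted p under 0.05). Errors of log2 differences are standard errors. CPM are counts scaled by the TMM-adjusted library size, as edgeR's cpm function gives them. Library totals ranged from 14929708 to 59194999 counts. In simulated data with 14414 genes the 60 h against 48 h test recovered 70 of 100 genes changed 2-fold and 86 of 100 changed 4-fold, with 7 false calls. The test of the difference between cycles recovered 57 of 100 and 76 of 100, with 3 false calls. In the simulated data these genes changed at 60 h alone, all else was flat over time, and the spread was drawn from the fitted dispersions. The real data had more called genes and a library that stood apart, so these rates need not hold for them.

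Alternatives were DESeq2 1.42.0, limma-voom (limma 3.58.1), RLE scaling, other filters, a fit to the compared times alone, an adjusted p under 0.01, a block for the replicate number and leaving out each library. Genes are named by rule. The rule takes the 12 largest called rises and 12 largest falls with a symbol, a mean of at least 5 CPM and no overlap, and 3 of each without a symbol. It adds all tested clock, light signalling and photoreceptor genes, up to 4 called members of other lists by size, and the 5 largest differences between cycles with a symbol and at least 5 CPM. Cell type markers and MpVg01240 are named besides, and other genes named outside the rule are marked as such. The lists, matched by symbol, and their members were chosen with earlier results of these data known.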

Additional observations from a re-analysis of the deposited data

Results flagged for a closer look

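The 12 h difference changed between the cycles, by a test of that change in edgeR, in 260 genes at an adjusted p under 0.05. Values below are log2, the 60 h minus 48 h difference less the 36 h minus 24 h difference, for the named genes among them. Genes lower at 60 h than at 48 h whose fall was smaller than that of the earlier cycle had positive values, which were 1.46 for MpPPR_73, 1.99 for MpPOD169, 1.66 for Mp6g04480, 2.81 for MpAUS, 0.83 for MpCYP827A1, 0.64 for MpDET1 and 0.59 for MpC4H1. Genes higher at 60 h whose rise was smaller than in the earlier cycle had negative ones, −3.82 for Mp3g24880, −4.75 for MpLOX16, −2.005 for MpLOX14 and −1.24 for MpPPO42. MpLOX10 (−1.92) and MpPOD167 (−2.06) rose in the earlier cycle and were not called at 60 h against 48 h. MpPOD94 (−1.50) and MpExpansin28 (−0.92) fell at 60 h against 48 h and were not called in the earlier cycle. MpBBX1 (1.51) had opposite signs in the cycles. The calls of MpCYP827A1, MpExpansin28 and MpPOD169 in this test were lost in 14, 10 and 7 of the alternatives, among them leaving out replicate 1 or 2 of 60 h (adjusted p over all lost alternatives 0.0555 to 0.139, 0.0529 to 0.108 and 0.0576 to 0.194). That of MpPOD94 was lost without replicate 1 of 60 h, 36 h or 24 h and without the 3 libraries rich in MpVg01240 (0.0516 to 0.0595). MpC4H1 was not called without replicate 2 of 60 h, 1 or 2 of 48 h, 3 of 36 h or 1 of 24 h (0.0537 to 0.0687). The cause of these differences was not tested.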

How the results depend on the processing

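The count of 1046 genes at 60 h against 48 h stayed within 1.5 times under RLE scaling (1030), DESeq2 (1329), limma-voom (958), no filter (934) and a mean of at least 1 CPM (1073). A fit to the 60 h and 48 h libraries alone gave 458 (291 higher, 167 lower), and an adjusted p under 0.01 gave 471 (284 higher, 187 lower). The change between cycles was called for 260 genes, 469 with DESeq2 and 110 at an adjusted p under 0.01. Leaving out single libraries gave 570 to 1011 genes, 349 to 629 higher and 221 to 382 lower, and 174 to 269 for the change between cycles. Deviations of same-numbered libraries of 60 h and 48 h had correlations of −0.0859, 0.214 and −0.0537, and those of differently numbered ones −0.25 to 0.323. The numbers were thus not taken to pair them. At 36 h and 24 h same-numbered libraries had positive values (0.144, 0.336 and 0.101). Differently numbered ones there had −0.245 to 0.159, which overlaps them. With the replicate number as a block 1024 genes were called at 60 h against 48 h, 618 higher and 406 lower, and 973 of them were among the 1046. The block gave 2797 genes at 36 h against 24 h and 259 for the change between cycles, in which MpCYP827A1 (adjusted p = 0.0555) and MpAUS (0.0546) lost their calls. Leaving out 3 libraries of 24, 30 and 66 h rich in MpVg01240, an alternative chosen after seeing the data, gave 1052 and 191. Of 98 named genes called at 60 h against 48 h, 51 kept the call in every alternative run except the stricter threshold, which was not applied to them, and none of the 98 changed sign. The fit to the compared times alone lost 37 of the 98 calls. Another 11 named genes, uncalled and near 0, changed sign in 23 alternative values, all uncalled (smallest adjusted p 0.571). Over all alternatives except the stricter threshold, log2 differences ran from −0.168 to 0.0544 for MpELF3, −0.139 to 0.01002 for MpFKF and −0.118 to 0.113 for MpRUP. They ran from −0.363 to 0.174 for MpBBX2, −0.0017 to 0.146 for MpSPA1, −0.148 to 0.0142 for MpCOP1 and −0.0703 to 0.0302 for MpBBX4. For MpBBX5 the range was −0.148 to 0.151, for MpUVR8 −0.0786 to 0.0988, for MpCRY −0.141 to 0.0563 and for MpPOD167 −0.364 to 0.236. The sign changes came with single libraries left out, and MpBBX5 also turned with RLE scaling (−0.00068), DESeq2 (−0.00066) and limma-voom (−0.0085). The cause was not tested. Depth limits genes under about 1 CPM, such as MpPAL6, whose levels rest on few counts per library.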
